A study of Mus musculus with 15 samples.

Results

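The genes described here are 9 that encode chains of fibrillar collagens, of a fibril-associated collagen and of beaded-filament collagen VI: Col1a1, Col1a2, Col3a1, Col5a1, Col5a2, Col6a1, Col6a2, Col6a3 and Col14a1. They were taken by symbol, as a list of chains, and all 9 were present among the 10222 gene symbols measured. Their RNA was compared in 5 cell populations sorted by flow cytometry from heterozygous IL33-citrine reporter mice on C57BL/6, with 3 libraries of each population and 15 in all. White adipose tissue (WAT), which the labels of the stromal cells give as mesenteric, gave stromal cells that expressed the citrine reporter (Il33+ WAT-MSC) and stromal cells that did not (Il33- WAT-MSC). MSC is the study's name for these multipotent stromal cells. Both were gated as Lin-CD45-Epcam-CD31-CD24- cells positive for PDGFRα, CD34, Sca1 and Podoplanin. WAT also gave Lin-CD45-Epcam-CD31+ endothelial cells, and the lung gave Il33+ MSC and Lin-CD45-Epcam+ epithelial cells. A gate for lung MSC beyond their label is not given in the sources used here. The labels name no treatment and no age, and the libraries of a population came from separate experiments. The reporter marks cells by Il33 expression, so the Il33+ and Il33- populations were divided by 1 gene. Whether they also differ in lineage was not tested.

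Collagens are secreted proteins wound from chains into a triple helix. Type I collagen, built from the chains of Col1a1 and Col1a2, makes the thick fibrils that carry tension in most connective tissue, and type III collagen, from Col3a1, is mixed into those fibrils in soft and distensible organs. Type V collagen, from Col5a1 and Col5a2, sits inside the same fibrils and sets how they start and how thick they grow. Type XIV collagen, from Col14a1, lies on the fibril surface. Type VI collagen is an assembly of the Col6a1, Col6a2 and Col6a3 chains that forms fine beaded filaments around cells, among them adipocytes, and the end piece cleaved from the Col6a3 chain is known as endotrophin. Fibroblast-like stromal cells are the main source of these chains in adipose tissue and lung.

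By the RefSeq annotation of mouse build GRCm38.p6 (mm10), 4 of the 9 genes lie beside another of them. Col3a1 (chr1:45311538-45349706) and Col5a2 (chr1:45374331-45503282) are separated by 24624 bases with 0 annotated genes between them. Col6a2 (chr10:76595756-76623630) and Col6a1 (chr10:76708792-76726044) are separated by 85161 bases that hold 2 long non-coding RNA genes, Gm51774 and Gm35608. Col6a3 lies at chr1:90766860-90844001, Col1a1 at chr11:94936224-94953042, Col1a2 at chr6:4505618-4541543, Col5a1 at chr2:27886381-28039510 and Col14a1 at chr15:55307644-55520803.

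The values below turn on a contrast between the type I chains and the type VI chains. Promoter windows are shown for 1 type I gene, the type III gene and 2 of the type VI genes. Each window runs from 250 bases before to 50 bases after the RefSeq start, 5′ to 3′ on the strand of the gene, and 6 of the 9 genes had one. Capitals mark matches on either strand to CCAAT, to GGGCGG or to TATAAA. They are from Col1a2 (chr6:4505368-4505667, plus strand), Col3a1 (chr1:45311288-45311587, plus strand), Col6a1 (chr10:76725995-76726294, minus strand) and Col6a3 (chr1:90843922-90844221, minus strand).
Col1a2: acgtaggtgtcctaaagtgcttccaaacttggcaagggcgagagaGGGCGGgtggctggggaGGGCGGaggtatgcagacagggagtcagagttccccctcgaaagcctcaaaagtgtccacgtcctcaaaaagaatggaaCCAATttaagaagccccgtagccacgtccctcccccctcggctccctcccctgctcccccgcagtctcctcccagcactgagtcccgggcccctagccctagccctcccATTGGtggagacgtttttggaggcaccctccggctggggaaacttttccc
Col3a1: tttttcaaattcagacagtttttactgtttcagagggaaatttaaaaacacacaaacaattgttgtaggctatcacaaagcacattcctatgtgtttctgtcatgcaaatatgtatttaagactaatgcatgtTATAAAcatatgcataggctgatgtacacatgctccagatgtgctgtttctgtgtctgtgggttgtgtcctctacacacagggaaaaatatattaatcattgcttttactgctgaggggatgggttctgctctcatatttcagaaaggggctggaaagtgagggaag
Col6a1: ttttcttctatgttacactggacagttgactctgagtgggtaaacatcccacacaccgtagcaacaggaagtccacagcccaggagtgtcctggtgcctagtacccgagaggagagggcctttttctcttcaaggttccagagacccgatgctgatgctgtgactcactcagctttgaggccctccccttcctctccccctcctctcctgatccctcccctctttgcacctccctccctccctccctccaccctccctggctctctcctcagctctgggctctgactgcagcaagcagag
Col6a3: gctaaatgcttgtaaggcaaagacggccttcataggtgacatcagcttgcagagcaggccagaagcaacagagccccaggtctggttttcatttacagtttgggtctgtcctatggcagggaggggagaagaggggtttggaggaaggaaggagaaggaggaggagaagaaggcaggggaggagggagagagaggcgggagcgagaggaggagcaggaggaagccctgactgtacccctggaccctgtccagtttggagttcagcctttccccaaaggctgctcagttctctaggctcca
CCAAT or its reverse complement ATTGG was present in 37.4% of 32851 promoter windows of that length, GGGCGG or CCGCCC in 35.7%, and TATAAA or TTTATA in 13.6%. Col1a2 held 2 matches to CCAAT and 2 to GGGCGG, and Col3a1 held 1 match to TATAAA that began 117 bases before the start. The Col6a1 and Col6a3 windows held no match to any of the 3 motifs, whereas Col6a2, the third type VI gene, held 3 matches to GGGCGG in 1 of its windows and 1 in the other. GGGCGG was present in 4 of the 7 windows of these genes. These matches describe the sequence and are not shown to be bound by a factor.

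Library sizes ranged from 42711843 to 60773158 alignments (median 53038567), and values are RPKM, in which the reads of a transcript are divided by its length and by the mapped reads of the library, so levels of different genes can be set side by side. Read counts behind single values were not used here, so counting error is unknown and spread is given over the 3 libraries of a population, which is also all that p-values measure. The sum of 7 endothelial markers, Pecam1 and Cdh5 among them, was 467 to 502 RPKM in WAT endothelial cells and at most 67.2 in any other library. The sum of 7 epithelial markers was 162006 to 209468 RPKM in lung epithelial cells and at most 542 elsewhere. WAT endothelial libraries also held the 6 stromal markers, at 334, 497 and 769 RPKM in replicates 1, 2 and 3, against 740.2 to 899 in Il33+ WAT-MSC. Of the endothelial sums, Ly6a gave 96.7, 289 and 476 RPKM and Cd34 144, 108 and 156. Both are also made by endothelial cells, so the sums do not measure stromal content. In bulk RNA from sorted cells, fewer cells of a type and less RNA per cell cannot be told apart. Libraries were sequenced in 2 lanes, with replicate 3 the only library of each WAT population in lane 2. Lane and replicate number therefore cannot be told apart in WAT. Replicate 3 held the highest value of most collagen genes in every population, 8 of 9 in Il33+ WAT-MSC, 9 in Il33- WAT-MSC, 7 in lung Il33+ MSC, 9 in WAT endothelial cells and 8 in lung epithelial cells.

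Together the 9 genes made up a large and uneven part of the measured RNA. Their summed RPKM was 2.19% ± 0.597 of all summed RPKM in Il33+ WAT-MSC (SD, n = 3), 2.14% ± 0.145 in Il33- WAT-MSC and 3.14% ± 0.439 in lung Il33+ MSC. The share was 1.09% ± 0.399 in WAT endothelial cells and 0.0360% ± 0.0134 in lung epithelial cells. Of the epithelial total, 57.7 to 62.9% came from Scgb1a1, a secreted protein of airway club cells, which lowers every other share there. Col1a1 ranked 10th by mean RPKM among all genes in lung Il33+ MSC, 17th in Il33+ WAT-MSC and 28th in Il33- WAT-MSC.

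Type I chains were highest in lung stroma. Col1a1 was measured at 1658, 2143 and 2646 RPKM in replicates 1, 2 and 3 of lung Il33+ MSC, at 823, 569.8 and 1578 in Il33+ WAT-MSC and at 587, 557 and 628 in Il33- WAT-MSC. Its 3 endothelial libraries held 147, 315 and 730.1 RPKM and its epithelial libraries 20.8, 19.96 and 46.8. All lung MSC libraries thus lay above all WAT-MSC libraries, whereas the Il33+ and Il33- libraries overlapped, as did Il33- WAT-MSC and endothelial cells. Col1a2 followed the same order, with 1559, 1906 and 2082 RPKM in lung Il33+ MSC, 870.4, 804 and 1314 in Il33+ WAT-MSC and 595, 658 and 736 in Il33- WAT-MSC. It was 271, 286 and 609 in endothelial cells and 30.6, 22.4 and 41.6 in epithelial cells. For Col1a2 the 3 stromal populations did not overlap with each other, and only Il33- WAT-MSC and endothelial cells did among neighbours in the order.

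Type III collagen did not separate the stromal populations. Col3a1 was measured at 808, 1145 and 1423 RPKM in lung Il33+ MSC, 723, 722 and 1055 in Il33+ WAT-MSC and 654, 767 and 952 in Il33- WAT-MSC. The 3 stromal populations overlapped. Endothelial libraries held 241, 251 and 586 RPKM, below every stromal library, and epithelial libraries 16.6, 13.7 and 29.1.

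The type V chains were present at lower levels and were highest on average in Il33- WAT-MSC. Col5a1 was measured at 102, 144 and 181 RPKM there, at 102, 62.3 and 124 in Il33+ WAT-MSC and at 75.0, 91.4 and 90.5 in lung Il33+ MSC. Neighbouring stromal populations in this order overlapped. Col5a2, the partner chain, had means of 54.1 ± 11.3 RPKM in Il33- WAT-MSC, 48.3 ± 10.98 in lung Il33+ MSC and 41.9 ± 6.07 in Il33+ WAT-MSC, and these also overlapped (SD, n = 3). In endothelial cells Col5a2, at 21.4 ± 7.54 RPKM, lay below every stromal library, and Col5a1, at 45.0 ± 24.7, overlapped with Il33+ WAT-MSC alone of the stromal populations. Both were near 1 RPKM in epithelial cells, at 1.66 ± 0.778 and 1.29 ± 0.406.

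Type XIV collagen separated the WAT stromal populations. Col14a1 was measured at 136, 112 and 126 RPKM in Il33+ WAT-MSC, 103, 133 and 121 in lung Il33+ MSC and 56.5, 52.5 and 71.0 in Il33- WAT-MSC. The Il33+ populations of both tissues overlapped, and every Il33- library lay below every library of either. Endothelial libraries, at 37.6, 47.7 and 66.2 RPKM, overlapped with Il33- WAT-MSC, and epithelial libraries held 2.40, 1.68 and 2.90.

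Type VI chains had their highest levels in Il33- WAT-MSC. Col6a2 was measured at 522, 665 and 781 RPKM in Il33- WAT-MSC, 352, 219 and 466 in Il33+ WAT-MSC and 215, 290.4 and 412 in lung Il33+ MSC. Col6a1 was measured at 297, 369.6 and 379 RPKM in Il33- WAT-MSC, 252, 171 and 288 in Il33+ WAT-MSC and 128, 167 and 178 in lung Il33+ MSC. For both genes the Il33- libraries lay above all Il33+ WAT-MSC libraries, which overlapped with lung Il33+ MSC. Col6a3, the long chain that carries the endotrophin end piece, was measured at 136, 175 and 194 RPKM in Il33- WAT-MSC, 105, 79.0 and 126 in Il33+ WAT-MSC and 35.4, 48.8 and 49.98 in lung Il33+ MSC. It was the one type VI chain whose 3 stromal populations did not overlap. Endothelial means were 114 ± 54.7 RPKM for Col6a1, 226 ± 146 for Col6a2 and 52.8 ± 32.9 for Col6a3, and epithelial means 7.23 ± 4.02, 12.5 ± 3.96 and 2.28 ± 0.684. Col6a3 was listed as 2 RefSeq transcripts, of which NM_001243009 held 94.8 ± 21.3 RPKM and NM_001243008 8.65 ± 3.29 in Il33+ WAT-MSC (SD, n = 3), and the other 8 genes as 1 transcript each.

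**Figure D1:**
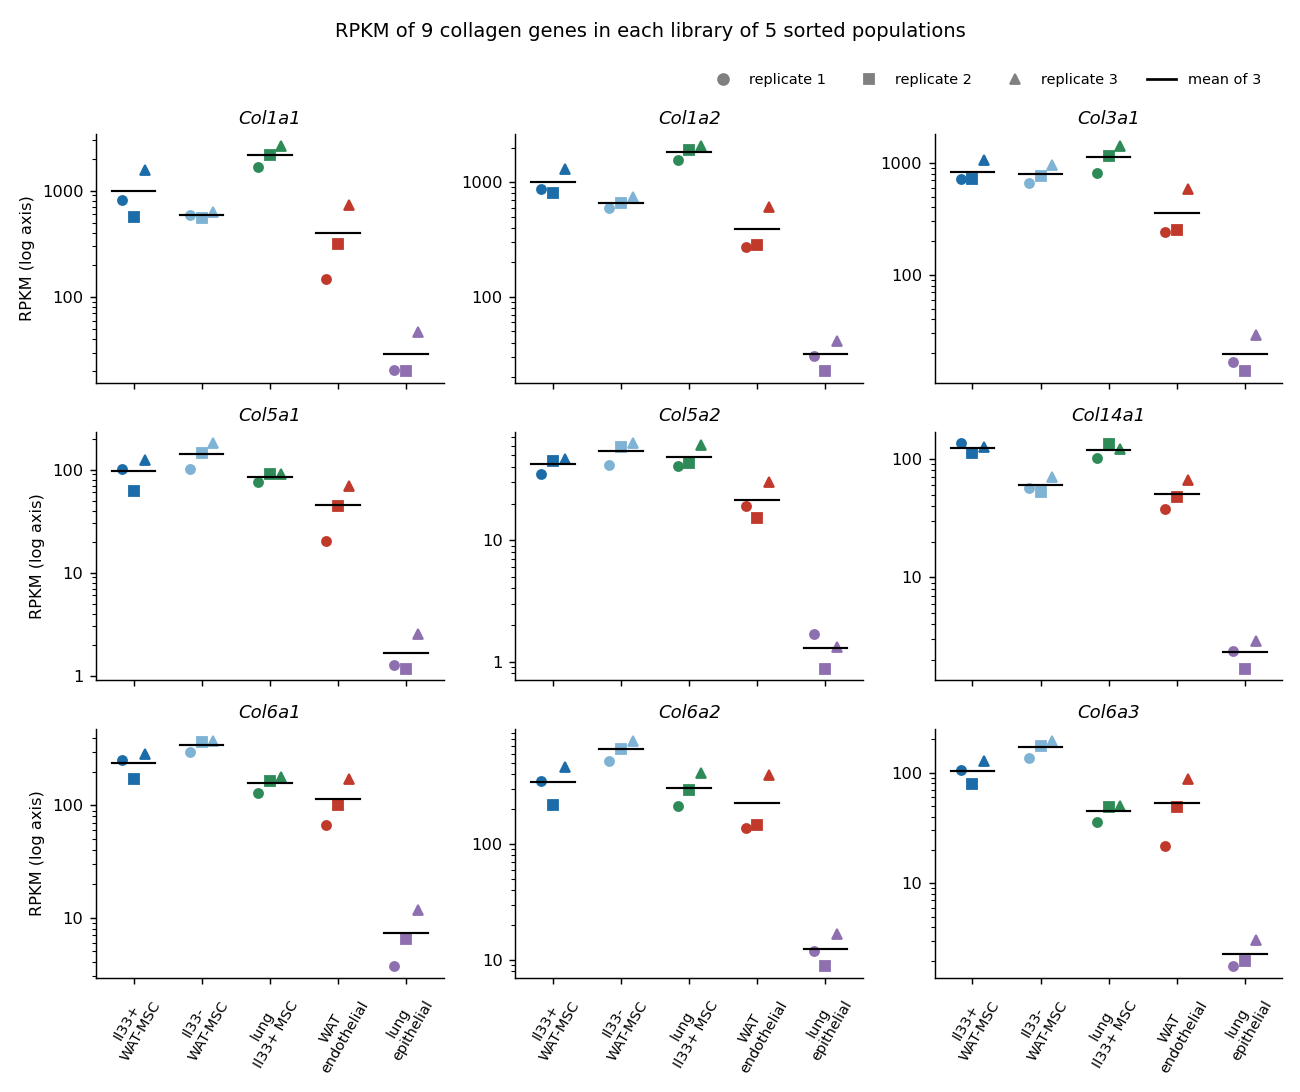
RPKM of each collagen gene (y, log axis) in the 15 libraries by sorted population (x). Circles, squares and triangles are replicates 1, 2 and 3 and the black line is the mean of 3. Col1a1 and Col1a2 are highest in lung Il33+ MSC, the 3 type VI genes are highest in Il33- WAT-MSC, and all 9 genes are lowest in lung epithelial cells.

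These levels changed the make-up of the collagen RNA. The percentages that follow are of the summed RPKM of the 9 genes in the same library, so the scaling of a library does not move them. They were chosen after the values were seen and are given as a description. Type I chains took 49.8, 49.4 and 56.4% in replicates 1, 2 and 3 of Il33+ WAT-MSC, 39.5, 35.3 and 34.2% in Il33- WAT-MSC and 69.6, 67.9 and 66.9% in lung Il33+ MSC. Type VI chains took 20.9, 16.8 and 17.2% in Il33+ WAT-MSC, 31.9, 35.1 and 34.0% in Il33- WAT-MSC and 8.19, 8.48 and 9.07% in lung Il33+ MSC. For both types the 3 stromal populations did not overlap, and they stood in opposite order. Shares of the same total are not independent, since a higher type I share leaves less for type VI. Type III averaged 22.6% ± 2.91, 22.7% ± 1.07 and 18.9% ± 1.34 in the same order of populations (SD, n = 3), with the WAT populations overlapping and all lung libraries below them. Type XIV took 3.50% ± 0.903 in Il33+ WAT-MSC and 1.73% ± 0.187 in Il33- WAT-MSC, and type V 3.73% ± 0.366 and 5.59% ± 0.705. In WAT endothelial cells type VI took 23.7% ± 0.245, with a total that differed between libraries from 960.0 to 2747 RPKM. Lung epithelial cells had a type VI share of 20.6% ± 1.66, above that of every lung Il33+ MSC library.

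**Figure D2:**
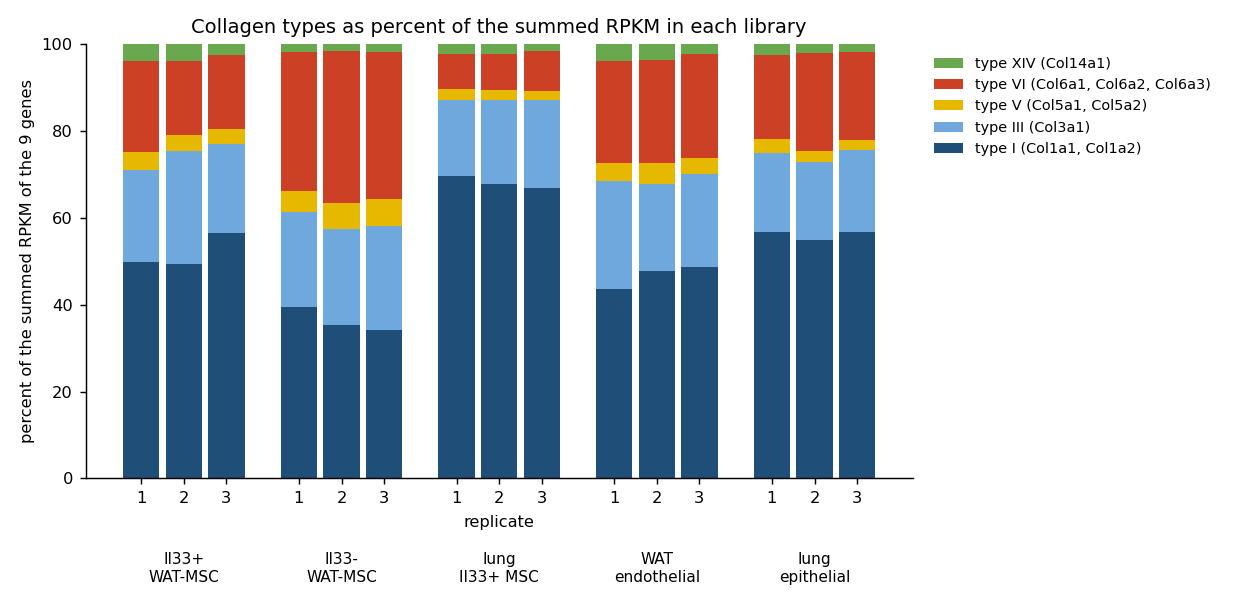
Stacked bars of each collagen type as percent of the summed RPKM of the 9 genes (y) in each library (x, replicates 1 to 3 of each sorted population). The type VI part averages 33.7% in Il33- WAT-MSC, 18.3% in Il33+ WAT-MSC and 8.58% in lung Il33+ MSC, and the type I part 36.3%, 51.9% and 68.1%.

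Il33+ and Il33- WAT-MSC were compared to ask whether collagen genes differ between stromal cells of the same tissue and gate that do or do not express Il33. Of the 9 genes, Col14a1 was higher in Il33+ cells and the other 8 did not pass the test. Its mean RPKM was 2.08-fold that of Il33- cells. Its log2 difference, here and below on the log2(RPKM + 1) scale, was 1.05 (SE 0.217), with an adjusted p of 0.0389 over 8448 genes in limma. Of all genes tested, 0.923% were called higher and 0.651% lower. The 3 type VI genes had lower values in all Il33+ libraries than in all Il33- libraries, a pattern shared by 8.65% of genes. Their log2 differences were -0.58 (SE 0.255) for Col6a1, -0.97 (SE 0.304) for Col6a2 and -0.71 (SE 0.247) for Col6a3, with adjusted p of 0.411, 0.197 and 0.266. Col1a2 and Col14a1 had higher values in all Il33+ libraries, a pattern shared by 8.84% of genes. Col1a2 differed by 0.56 (SE 0.267, adjusted p = 0.459) and Col1a1 by 0.61 (SE 0.343, adjusted p = 0.546). The median log2 difference was -0.35 over the 9 genes and -0.01 over all genes tested.

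Within lane 1, with 2 libraries of each population, Col14a1 differed by 1.17 on the log2 scale, and within lane 2, with 1 of each, by 0.82. Col6a2 differed by -1.08 and -0.74 in the same lanes. The Col14a1 call was lost whichever of the 6 libraries was left out, with adjusted p from 0.0635 to 0.174, and without a filter on low values, at 0.0664. Mesothelial markers summed to 29.2 to 90.4 RPKM in Il33+ and 19.7 to 28.3 in Il33- libraries (6 of 6 measured). Wt1 gave 9.80 to 15.1 of the Il33+ and 10.7 to 23.6 of the Il33- sums. Msln, Upk3b, Lrrn4, Upk1b and Bnc1 had higher means in Il33+ cells, with Lrrn4 at 16.9 against 3.00 and Upk1b at 16.2 against 1.39 RPKM. Leukocyte markers summed to 6.42 to 10.9 RPKM in Il33+ and 19.6 to 41.5 in Il33- libraries (5 of 6 measured), most of it from Cd68 or Lyz2. No listed marker was at 0 in all 3 libraries of either population, and the part of these cells in the collagen values was not tested.

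Of the other collagens, 2 of 6 fibril-related or type VI genes that could be tested fell in Il33+ WAT-MSC and 0 rose. Col5a3, a further chain of type V, averaged 18.7 RPKM in Il33+ and 59.2 in Il33- cells (log2 difference -1.66, adjusted p = 0.0137), and Col6a6, a chain that can take the place of Col6a3, 6.53 and 22.5 (-1.68, adjusted p = 0.0137). Among basement membrane, network and transmembrane collagens 3 of 9 fell. Col4a1 averaged 109 RPKM against 333 and Col4a2 107 against 303, the chains of the main basement membrane network, and Col15a1, a collagen beside basement membranes, 98.3 against 247. Adjusted p was 0.00577, 0.0128 and 0.0145. None of 21 genes for procollagen folding and export passed the limma test, nor did any of 17 for processing, cross-linking and fibril assembly or any of 7 collagen receptors. Over all 8448 genes 133 passed, and 980 had an unadjusted p below 0.05. Without replicate 2 of Il33- WAT-MSC, 0 of the 6 fibril-related and 1 of the 9 other collagens passed, and without its replicate 3, 1 of each. Without replicate 1 or 2 of Il33+ WAT-MSC, 1 of the 9 passed. The median log2 difference was -0.07 for folding, 0.25 for processing and 0.14 for receptors.

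Il33+ stromal cells were next compared between WAT and lung. Col6a3 was the gene of the 9 that passed, with a mean RPKM 2.31-fold higher in WAT than in lung (log2 difference 1.18, SE 0.227, adjusted p = 0.0116 over 8554 genes). Among all genes, 2.5% were called higher and 3.5% lower in WAT. Its partner chains had differences of 0.57 (SE 0.236, adjusted p = 0.250) for Col6a1 and 0.16 (SE 0.312, adjusted p = 0.862) for Col6a2. The Col6a3 difference was 1.34 within lane 1 and 1.33 within lane 2, whereas that of Col1a1 was -1.27 and -0.59 and that of Col1a2 -0.90 and -0.60. Lane 1 held 2 WAT libraries and 1 lung library, and lane 2 the reverse. Col1a1 and Col1a2 had lower values in every WAT library than in every lung library, at -1.22 (SE 0.355, adjusted p = 0.0821) and -0.92 (SE 0.253, adjusted p = 0.0662), a pattern shared by 11% of genes. Col6a3 was the single member above without overlap, as were 12.1% of genes. Col3a1, Col5a1, Col5a2 and Col14a1 overlapped, with log2 differences between -0.42 and 0.11.

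The Col6a3 call was lost without replicate 3 of Il33+ WAT-MSC (adjusted p = 0.0510), without replicate 1 or 2 of lung Il33+ MSC (0.0646 and 0.0546) and with all 15 libraries in one fit (0.115). Without replicate 3 of Il33+ WAT-MSC both type I chains passed, Col1a1 at -1.62 (adjusted p = 0.0139) and Col1a2 at -1.13 (0.0324), and they also passed with median-ratio scaling (0.0397 and 0.0246). Leukocyte markers summed to 135 to 167 RPKM in lung Il33+ MSC, of which Lyz2 alone gave 105 to 145. Epithelial markers summed to 179 to 542 against 73.1 to 144 in WAT. Scgb1a1 gave 72.9 to 493 of these in lung and 71.2 to 134 in WAT. Sftpc gave 28.0 to 93.4 and 0.31 to 1.41, and Sftpb 1.63 to 11.2 and 0.18 to 0.32. Cdh1 averaged 0.763 RPKM in lung and 0.0433 in WAT. Krt8 and Krt18 went the other way, with means of 0.307 and 0.38 in lung against 2.15 and 2.22 in WAT. Epcam was at most 0.28 RPKM in both. Mesothelial markers summed to 1.11 to 3.51 against 29.2 to 90.4, and the part of these cells in the differences was not tested.

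Around these chains, other collagens and matrix proteins also differed between the tissues. Of 6 fibril-related or type VI collagens, 2 rose in WAT and 0 fell. Col5a3 averaged 18.7 RPKM against 2.89 and Col6a5, another chain related to Col6a3, 5.45 against 0.483, with log2 differences of 2.31 and 2.11 (adjusted p = 0.00147 and 0.00216). Col6a5 was below 1 RPKM in every lung library, so it was tested only through WAT and could be called only as higher there. Of 9 basement membrane, network and transmembrane collagens 3 rose and 1 fell, with Col8a1, a network-forming collagen, at 22.6 against 5.31 RPKM and Col23a1, a transmembrane collagen, at 0.737 against 6.92. Of 17 genes for processing, cross-linking and assembly 3 rose and 2 fell. Postn, periostin, which binds type I collagen and aids cross-linking, averaged 112 RPKM in WAT and 13.1 in lung (2.96, adjusted p = 0.000147), and Loxl2, a lysyl oxidase, 86.7 and 39.5 (1.11, adjusted p = 0.00352). Loxl4, another lysyl oxidase, fell by 1.32 and Pcolce2, which speeds the removal of the procollagen end piece, by 1.14 on the log2 scale. Plod2, the lysyl hydroxylase of the collagen telopeptides, rose by 1.05 (adjusted p = 0.0143), 1 of 21 folding genes. Itga11, the α subunit of a fibrillar collagen receptor, rose by 2.26 (adjusted p = 0.000118), 1 of 7 receptors. With a library left out, the fibril-related count was 1 without replicate 1 or 3 of Il33+ WAT-MSC, the lower processing count 1 without replicate 3 of Il33+ WAT-MSC or replicate 1 or 3 of lung Il33+ MSC and 0 without lung replicate 2, and the count of higher basement membrane and related collagens 1 without lung replicate 2. Plod2 was not called without replicate 1 or 3 of Il33+ WAT-MSC or replicate 1 or 2 of lung Il33+ MSC.

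**Figure D3:**
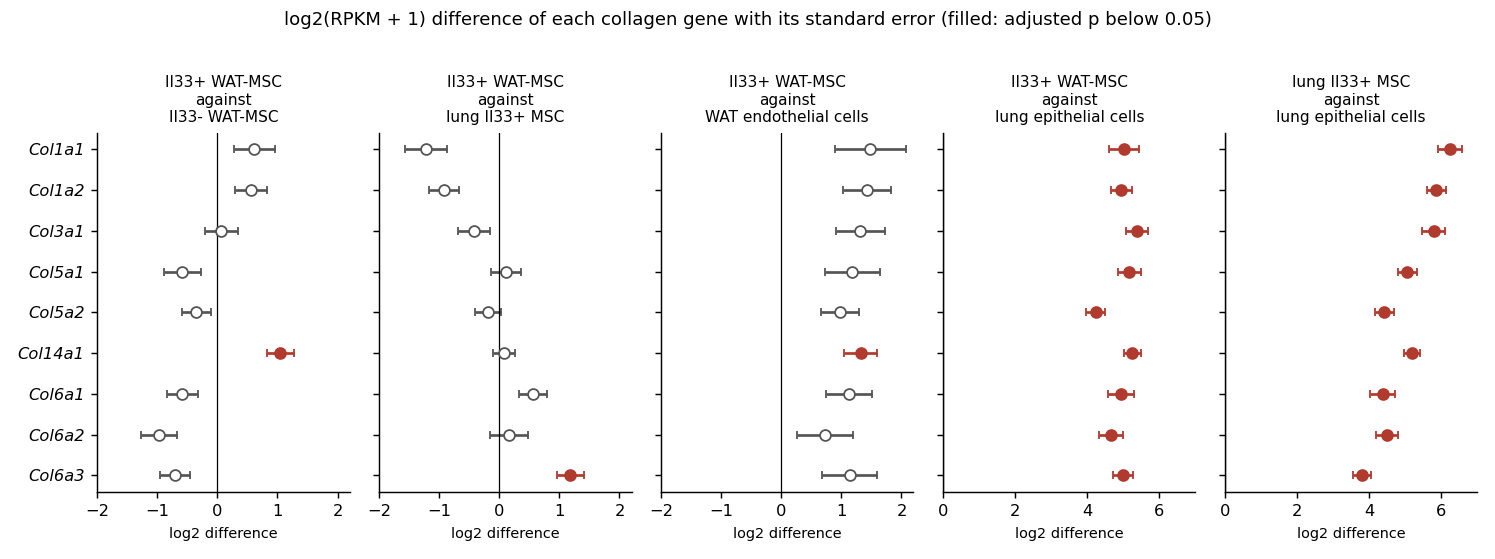
log2(RPKM + 1) difference (x) of each collagen gene (y) in the 5 comparisons, first-named population minus second, with the standard error of the limma fit. Filled red points have an adjusted p below 0.05. Col14a1 passes against Il33- WAT-MSC and against WAT endothelial cells, Col6a3 against lung Il33+ MSC, and all 9 genes in both comparisons with epithelial cells, whose axis differs.

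WAT endothelial cells held collagen RNA at levels that differed widely between their libraries. As percent of the Il33+ WAT-MSC mean, the median of the 9 genes was 28.0 in replicate 1, 38.3 in replicate 2 and 72.6 in replicate 3. The 6 stromal markers had medians of 63.6, 64.9 and 95.0%, and replicate 3, the highest library for most collagen genes in every population, was so for all 9 here. Cd34 and Ly6a are also made by endothelial cells. Pdgfra, the marker of the stromal gate, was at 34.4, 39.7 and 50.4% of its Il33+ WAT-MSC mean. Mural markers, those of pericytes and smooth muscle, summed to 192 to 272 RPKM in endothelial and 13.3 to 21.9 in Il33+ WAT-MSC libraries (7 of 7 measured, none at 0 in all 3 libraries). In replicates 1, 2 and 3 of the endothelial cells mural markers summed to 271, 272 and 192 RPKM, mesothelial markers to 45.0, 152 and 158 and leukocyte markers to 8.74, 155 and 60.9. The part of stromal, mural, mesothelial or leukocyte RNA in these collagen values was not tested.

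Il33+ WAT-MSC had higher mean values than endothelial cells for all 9 genes, and Col14a1 passed the test. Its log2 difference was 1.32 (SE 0.282, adjusted p = 0.0372 over 8665 genes), where 0.565% of genes were called higher and 3.34% lower. For Col1a2, Col3a1, Col5a2 and Col14a1 the libraries did not overlap, as for 13% of genes in this direction, and for 0 of the 9 in the other, against 10.2%. The log2 differences of the other 8 genes ranged from 0.72 for Col6a2 (adjusted p = 0.490) to 1.48 for Col1a1 (adjusted p = 0.269). The median was 1.18 over the 9 genes and 0.18 over all genes tested. Without replicate 3 of the endothelial cells, 4 of the 9 passed, Col1a2 at 1.80, Col3a1 at 1.74, Col6a1 at 1.48 and Col14a1 at 1.53. The Col14a1 call was lost when any of the other 5 libraries was left out (adjusted p from 0.0616 to 0.195), and its difference was 1.52 in lane 1 and 0.91 in lane 2. Of 9 receptors tested, Antxr1, a collagen-binding receptor, and Itga11 were higher in Il33+ WAT-MSC and Itga1, another integrin subunit that binds collagen, was lower. Dpt, dermatopontin, which binds collagen fibrils, was higher in stroma (1.55, adjusted p = 0.0275), 1 of 18 processing and assembly genes, and 0 of 20 folding genes passed. Of the 6 fibril-related and type VI and the 8 other collagens tested, 0 passed, with medians of 1.03 and 0.50 on the log2 scale. The receptor calls in both directions and that of Dpt were lost when any replicate of Il33+ WAT-MSC or replicate 2 of the endothelial cells was left out, and 5 processing genes passed without endothelial replicate 3. Dpt was also lost without endothelial replicate 1, and Itga1 without replicate 3.

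**Figure D4:**
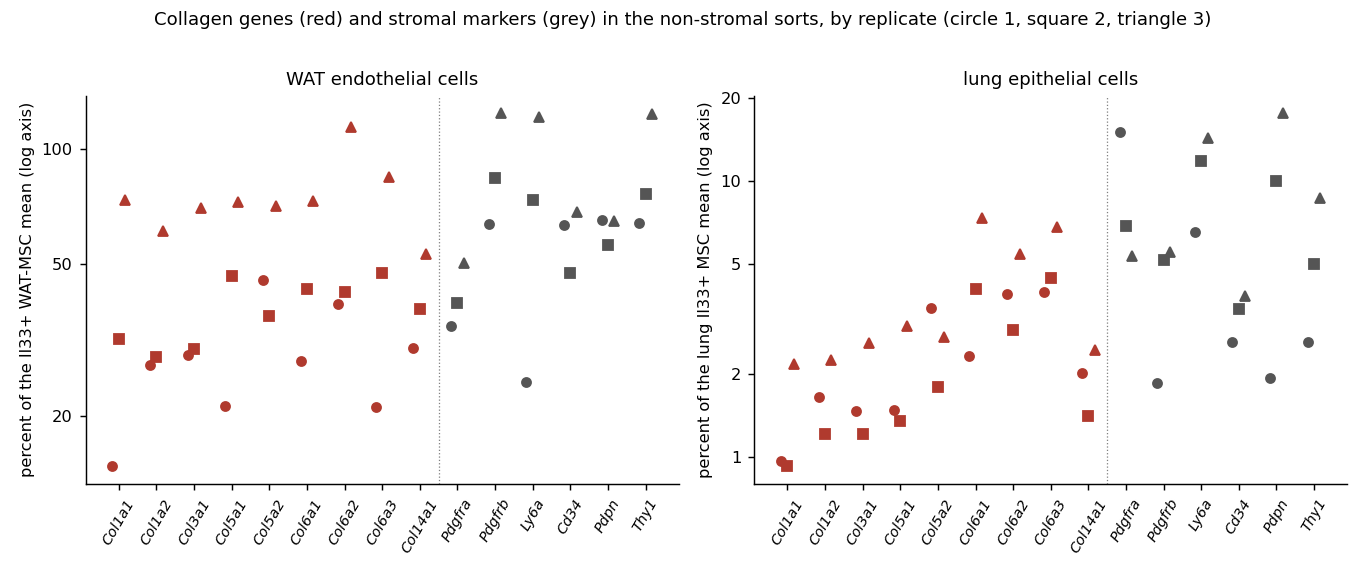
Level of each collagen gene (red) and stromal marker (grey) in each library of WAT endothelial cells, as percent of the Il33+ WAT-MSC mean, and of lung epithelial cells, as percent of the lung Il33+ MSC mean (y, log axes with different ranges). Circles, squares and triangles are replicates 1, 2 and 3. Endothelial collagen values range from 14.8 to 114%, and epithelial ones from 0.929 to 7.36%.

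Epithelial cells from lung held all 9 genes far below both stromal populations. Against lung Il33+ MSC, the same-tissue comparison, the log2 differences ran from 3.80 (SE 0.251) for Col6a3 to 6.24 (SE 0.343) for Col1a1, and 9 of 9 passed, where 24.4% of 9352 genes were called higher and 18.5% lower. Col1a1 was 73.6-fold higher in lung Il33+ MSC, Col1a2 58.7-fold and Col3a1 56.8-fold, against 21.8-fold for Col6a1, 24.5-fold for Col6a2 and 19.6-fold for Col6a3. Adjusted p was 7.01e-07 for Col14a1, at 51.1-fold, and 8.62e-06 for Col6a1. Against Il33+ WAT-MSC 9 of 9 also passed, with log2 differences from 4.23 for Col5a2 to 5.37 for Col3a1, where 23% of 9267 genes were called higher and 18% lower. These comparisons share the epithelial libraries, and the second also crosses tissues. Between them the median log2 difference of the 9 genes was 5.06 and 4.99, and that of all genes tested 0.13 and 0.17.

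What remained in the epithelial libraries was 2.02, 1.41 and 2.74% of the lung Il33+ MSC mean at the median of the 9 genes in replicates 1, 2 and 3. The 6 stromal markers had medians of 2.62, 6.04 and 7.13%. These markers were not alike, with Pdpn at 1.94, 10.0 and 17.6% and Cd34 at 2.61, 3.45 and 3.84%. Col6a1, Col6a2 and Col6a3 lay at 4.59, 4.08 and 5.10% of the lung mean and Col1a1, Col1a2 and Col3a1 at 1.36, 1.70 and 1.76%. Leukocyte markers summed to 695 to 1334 RPKM in these libraries. Lyz2, which alveolar type II cells also express, gave 658 to 1301 of this and each of the other 4 at most 15.5. Mural markers summed to 5.53 to 9.01, with none at 0 in all 3 libraries. Their part, and that of stromal RNA, in the remaining values was not tested.

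Most genes for making collagen were also higher in stroma. Of 22 folding, modification and export genes tested in lung Il33+ MSC against epithelial cells, 20 rose and 1 fell, led by Serpinh1, the collagen chaperone HSP47, at 221 against 13.3 RPKM (4.06), and by P3h3, a prolyl 3-hydroxylase, at 18.4 against 0.327 (3.88). P3h2, another prolyl 3-hydroxylase, fell by 1.68 on the log2 scale. The filter for testing asked for an RPKM of 1 in 3 or more of the 6 libraries. Fkbp14, P3h1, P3h3, P3h4 and P4ha3 were below 1 RPKM in every epithelial library, so they could be called only as higher. P3h2 was below 1 RPKM in every lung Il33+ MSC library, so it could be called only as lower. All 16 processing, cross-linking and assembly genes tested rose, led by Dpt at 706 against 17.1 RPKM (5.30) and by Sparc, a collagen-binding matrix protein, at 4603 against 120.4 (5.27). Loxl3, Loxl4 and Thbs2 among them were below 1 RPKM in every epithelial library and could be called only as higher. Of 8 receptors 6 rose, with Ddr2, a fibrillar collagen receptor of stromal cells, at 67.0 against 2.42 RPKM, and Ddr1, its relative of epithelia, fell from 3.53 in epithelial cells to 0.263 RPKM. By the same filter Itga11 was tested only through stroma and Ddr1 only through epithelial cells, which fixed their direction. All 5 other fibril-related or type VI collagens tested rose, and of 10 basement membrane, network and transmembrane collagens 9 rose and 1, Col8a2, fell. Those 5, with Col4a3 and Col4a4, were below 1 RPKM in every epithelial library. They were tested only through stroma and could be called only as higher, so their direction is not a result. Col8a2 was below 1 RPKM in every lung Il33+ MSC library and could be called only as lower. With Il33+ WAT-MSC in place of lung MSC the counts were 18 up and 1 down of 20, 17 of 17, 6 up and 1 down of 8, 5 of 5, and 8 up and 2 down of 10. The same filter applied to these counts, and the 5 of 5 were again below 1 RPKM in every epithelial library.

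Ratios of chains within a library are not moved by its scaling, and 6 were compared over the 5 populations by an exact permutation test over 1401400 partitions of the libraries. The Col1a1/Col1a2 ratio averaged 0.952 ± 0.246 in Il33+ WAT-MSC, 0.896 ± 0.0793 in Il33- WAT-MSC and 1.15 ± 0.106 in lung Il33+ MSC (SD, n = 3), and a difference over the populations was not detected (exact permutation p = 0.714, adjusted 0.714). Col6a1/Col6a2 (adjusted p = 0.714) and Col5a1/Col5a2 (adjusted p = 0.346) were not called either in the same exact test over the 5 populations. Over the 3 stromal populations alone, the adjusted exact p was 0.296 for Col1a1/Col1a2, 0.0964 for Col6a1/Col6a2 and 0.296 for Col5a1/Col5a2. Col6a1/Col6a2 was 0.618 to 0.781 in Il33+ WAT-MSC, above the 0.485 to 0.569 of Il33- WAT-MSC and the 0.432 to 0.595 of lung Il33+ MSC. Col6a3/Col6a1 was 0.418, 0.463 and 0.437 in Il33+ WAT-MSC, 0.458, 0.474 and 0.513 in Il33- WAT-MSC and 0.277, 0.293 and 0.281 in lung Il33+ MSC. All lung MSC values lay below all WAT-MSC values, and the spread within lung was small. Over the 5 populations the exact permutation p was 0.0352 (adjusted 0.0912), and over the 3 stromal populations alone, with 280 partitions, 0.00714 (adjusted 0.0214). Without the epithelial cells the adjusted exact p was 0.0795. Over the 5 populations it was 0.0369 without endothelial replicate 1 and 0.0242 without epithelial replicate 1.

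Col3a1/Col1a1 was 0.520 ± 0.0279 in lung Il33+ MSC, 0.938 ± 0.303 in Il33+ WAT-MSC and 1.33 ± 0.204 in Il33- WAT-MSC. Its exact permutation p was 0.0142 (adjusted 0.0851) over the 5 populations and 0.00714 (adjusted 0.0214) over the 3 stromal ones, and adjusted p was 0.0799 without the epithelial cells. By the same exact test over the 5 populations, adjusted p was 0.0321 without replicate 3 of Il33+ WAT-MSC, 0.0129 without replicate 1 of the endothelial cells and 0.0418 without their replicate 3. Col14a1/Col1a1 was 0.147 ± 0.0605 in Il33+ WAT-MSC, 0.101 ± 0.0103 in Il33- WAT-MSC and 0.0566 ± 0.00940 in lung Il33+ MSC, with an exact permutation p of 0.0456 (adjusted 0.0912). Over the 3 stromal populations its adjusted exact p was 0.0714, and without the epithelial cells 0.103. Over the 5 populations it was 0.0321 without replicate 3 of Il33+ WAT-MSC and 0.0418 without replicate 3 of the endothelial cells.

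**Figure D5:**
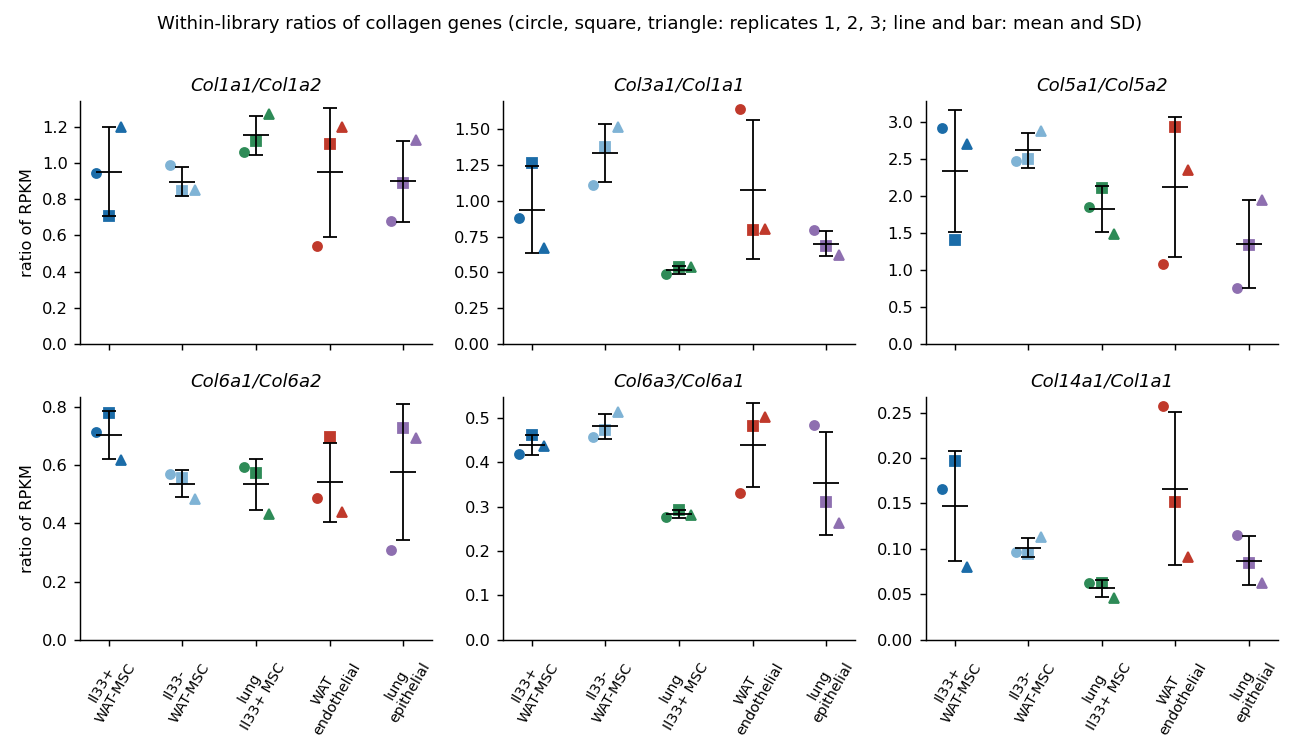
Ratio of the RPKM of a pair of collagen genes (y, from 0) in each library by sorted population (x). Symbols are replicates 1, 2 and 3, and the line and bar are the mean and SD of 3. Col6a3/Col6a1 lies between 0.277 and 0.293 in lung Il33+ MSC and between 0.418 and 0.513 in the WAT-MSC libraries.

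Across the 9 stromal libraries, which share tissue and gate in part, the chains fell into sets with like patterns. On log2 values Pearson's r was 0.98 for Col1a1 and Col1a2, 0.97 for Col6a1 and Col6a3 and 0.93 for Col5a1 and Col6a2. It was -0.81 for Col1a2 and Col6a3 and 0.54 for Col5a1 and Col5a2, the partner chains of type V. Col3a1 and Col5a2, neighbours on chromosome 1, had an r of 0.50, and Col6a1 and Col6a2, near each other on chromosome 10, of 0.92. These are descriptions over 3 populations, which set most of the spread.

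Among 9981 genes, a number that includes the members, 8 non-members had log2 values over the 15 libraries closest to the mean of the 9 collagens. They were Ctsl (r = 0.992), C1s1 (0.992), Slit3 (0.991), Sparc (0.990), Fkbp9 (0.990), Serpinh1 (0.989), Dcn (0.988) and Dpt (0.987). Ctsl is the lysosomal protease cathepsin L, C1s1 a complement protease, Slit3 a guidance ligand, Fkbp9 a prolyl isomerase of the endoplasmic reticulum and Dcn decorin, a proteoglycan of collagen fibrils. Serpinh1 averaged 269 ± 78.1 RPKM in Il33+ WAT-MSC, 308 ± 53.1 in Il33- WAT-MSC, 221 ± 7.42 in lung Il33+ MSC, 132 ± 40.3 in endothelial and 13.3 ± 6.71 in epithelial cells (SD, n = 3). Dcn averaged 2786 ± 451, 2613 ± 500.3, 2503 ± 28.7, 1108 ± 315 and 45.7 ± 14.3. Within the 9 stromal libraries r to the same mean was 0.72 for Slit3, 0.62 for Serpinh1, 0.57 for Sparc and -0.01 for Dcn.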

How the data were processed

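RNA of 15 sorted libraries (5 populations, 3 each) was amplified with Ovation RNA-seq System V2. Per the labels and methods, the authors aligned reads with TopHat2 in Partek software to mm10, and deposited RPKM for 12698 transcripts. Their gene filter and model are not given in the sources used here. Groups, replicate numbers and lanes came from the sample labels, and every value column had one. RPKM was summed over the transcripts of each of 10222 symbols. The deposited RPKM divide by transcript length and mapped reads, so a few abundant transcripts lower all others. No libraries were identical, and r between libraries of a population was 0.773 to 0.962.

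Comparisons used limma 3.58.1 in R 4.3.3 (lmFit, eBayes with trend) on log2(RPKM + 1) of the 6 libraries compared, for genes that reached an RPKM of 1 in 3 or more of them, with Benjamini-Hochberg adjustment over all genes tested and a threshold of 0.05. The added 1 understates differences of low genes. Chain ratios were tested by exact permutation of the F statistic of log2 ratios, two-sided, with adjustment over 6 ratios. An exact test of 3 libraries against 3 cannot give p below 0.1. The limma fit and the exact permutation test were tried on simulated data. Other calculations and plots used Python 3.11.15, scipy 1.17.1, pandas 2.3.3, numpy 2.4.6 and, for figures, matplotlib 3.10.9. Promoter windows and loci are from RefSeq, GRCm38.p6.

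The members and gene lists were chosen with earlier results of these data known. All 9 members are named in every comparison. Of each other list, at most 4 genes with the largest difference among those past the threshold are named, and list members below it where a sentence needs them. The 8 likeness genes are those with the highest r. Of the listed genes, 6 of 19 further fibril-related and type VI collagens, 10 of 17 other collagens, 23 of 29 folding genes, 18 of 20 processing genes and 9 of 13 receptors were measured. Of 4 adipocyte markers 0 were measured. Alternatives were a replicate block, lane, all libraries in one fit, scaling, pseudocount, filters, the most abundant transcript and each library left out. For the lists these were added after the data were seen.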

Additional observations from a re-analysis of the deposited data

How the results depend on the processing

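With a replicate block, the members called were 2 against Il33- WAT-MSC (Col6a2 added, adjusted p = 0.0480), 3 against lung Il33+ MSC and 3 against endothelial cells, where the fits without a block called 1 each. In no comparison did every same-numbered pair have r above 0.1 (mean r from -0.03 to 0.09), so the numbers were not taken to pair the libraries. Within a tissue they also share a lane, and in 2 comparisons, Il33+ with Il33- WAT-MSC and lung MSC with epithelial cells, all pairs had r above 0 and all 6 libraries correlated best with their own number. The block moved the genes called against Il33- WAT-MSC from 133 to 232, and no filter to 45, with 0 members. Quantile normalization called 2 members there (Col6a3 at 0.0439) and turned Col3a1 to -0.20. Against lung Il33+ MSC, one fit of all libraries called 336 genes, in place of 513, and 0 members, median-ratio scaling 3 members and a filter of 5 RPKM 2. Against endothelial cells, the same joint fit called 805 genes, in place of 338, and 4 members, lane as a covariate 3 and median-ratio scaling 2. With each library left out, members called ranged from 0 to 0, 0 to 2 and 0 to 4 in these comparisons, and genes called from 49 to 121, 191 to 447 and 56 to 261. Both comparisons with epithelial cells kept 9 of 9 members under every alternative, with 2364 to 3066 genes called against Il33+ WAT-MSC when a library was left out, in place of 3800, the lowest without epithelial replicate 2. Median-ratio scaling moved the median of all genes by -0.15 against endothelial and by -0.26 (Il33+ WAT-MSC) and -0.19 (lung MSC) against epithelial cells, and the share of calls that were higher in Il33+ WAT-MSC from 56.0 to 44.2%. Member differences that changed sign when a library was left out were not called: Col3a1 against Il33- WAT-MSC (-0.11 to 0.21), and against lung Il33+ MSC Col5a1 (-0.0964 to 0.39), Col6a2 (-0.0903 to 0.45) and Col14a1 (-0.0298 to 0.16). Of the chain ratios, the 3 stromal populations alone gave an adjusted exact p of 0.0214 for Col3a1/Col1a1 and Col6a3/Col6a1, and with each library left out the exact p ranged from 0.0129 to 0.181 for Col3a1/Col1a1, 0.0242 to 0.242 for Col6a3/Col6a1 and 0.0321 to 0.242 for Col14a1/Col1a1, against 0.0851, 0.0912 and 0.0912 with all libraries. Of the counts of the other gene lists under the alternatives, 797 were equal or stayed within 1.5 times and 103 moved. The 797 include counts that were 0 and stayed at 0, so they do not measure how stable the calls were. With a stromal library left out, the other fibril-related collagens passing against epithelial cells fell from 5 to 0, where the filter still asked for 3 libraries. Where a call changed, the cause was not tested.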
